A study of Mus musculus with 23 samples.

Results

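H3K9me3 peaks lying well inside protein-coding genes were described here in CD4+ naive T cells of the mouse. They were the peaks under 2000 bp wide on chromosomes 1 to 19 and X whose midpoint lay within a protein-coding gene of RefSeq and over 3000 bp from both ends of every protein-coding gene. Of 16738 H3K9me3 peaks in all, 2487 met this rule (14.9%), or 15.4% of the 16161 peaks on those chromosomes. They are called inside peaks below, a gene that held at least 1 is a host, and the interior of a gene is its sequence over 3000 bp from every protein-coding gene end.

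WT and DDX55 KO mice gave the cells, taken from spleen and from a source labelled pLN, and DDX55 is a DEAD-box RNA helicase. Chromatin was profiled by CUT&Tag, in which an antibody tethers a transposase that cuts and tags the DNA around its target. Among the 23 samples, H3K9me3, DDX55 and RNA polymerase II had 4 profiles each, 2 of WT and 2 of DDX55 KO cells. R-loops, probed with S9.6, an antibody to hybrids of DNA and RNA, had 8, 2 per genotype with 20 U of RNase H and 2 per genotype without. A further 2 HA profiles and 1 IgG profile came from WT cells. How the knockout was made, the animals' age and whether replicate samples came from different mice are not given in the sources used here. Each target had 1 merged peak list, of 16738 H3K9me3, 10924 RNA polymerase II, 1499 R-loop and 243 DDX55 peaks, and the WT and DDX55 KO samples of a target named the same list. WT therefore could not be compared with DDX55 KO from these lists, which hold no values per sample and so give no replicate error. The sequencing depth is unknown. Profiles treated with RNase H named the same R-loop list as untreated ones, so the 2 treatments could not be compared either. Whether an R-loop peak was sensitive to RNase H cannot be read from these lists. Every share below is a description of these lists, with an exact Clopper-Pearson 95% interval that covers counting error only, because neighbouring peaks and overlapping genes are not independent. A peak present in every cell and one present in some of the cells cannot be told apart in such bulk profiles.

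H3K9me3, trimethylation of lysine 9 of histone H3, is the mark of constitutive heterochromatin. It is written by SETDB1, SUV39H1 and SUV39H2, bound by HP1 proteins, and is best known over satellite repeats, over retroelements silenced through TRIM28 and zinc finger proteins of the KRAB family, and over clusters of zinc finger genes. RNA polymerase II at a gene's start is, in turn, a common sign that the gene is being transcribed or is held ready for it. Of 15 marker genes of CD4+ naive T cells, 11 had RNA polymerase II within 3000 bp of an end, among them Cd4, Cd3e, Cd28, Il7r, Ccr7 and Lef1, while Tcf7, Foxp1 and Bcl11b were among those that did not. The same held for 1 of 7 markers of CD8 T and NK cells (Prf1), 1 of 7 of B cells (Cd79a), 1 of 7 of myeloid cells (Cd68) and 2 of 5 of erythroid cells (Klf1 and Epor). Over all protein-coding genes the share was 33.9%. The lists of other cells are too small to be set apart from it, so no purity of the cells is read from these counts.

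Start sequences show how the hosts with and without RNA polymerase II differed in one base pair step, CG, the site of DNA methylation and the hallmark of CpG island promoters. The RefSeq promoter windows of GRCm38.p6 (the assembly behind mm10) run from 250 bases before to 50 bases after a start. Below are the windows of 3 hosts among the 15 with most inside peaks, all without an RNA polymerase II peak at either end, 5′ to 3′ on the strand of the gene, with each CG in capitals. Lrrc4c (chr2:96317919-96318218, plus strand) encodes the netrin-G ligand NGL-1, Lsamp (chr16:39984114-39984413, plus strand) a neuronal adhesion protein, and Zfp993 (chr4:146512599-146512898, plus strand) a zinc finger protein.
Lrrc4c: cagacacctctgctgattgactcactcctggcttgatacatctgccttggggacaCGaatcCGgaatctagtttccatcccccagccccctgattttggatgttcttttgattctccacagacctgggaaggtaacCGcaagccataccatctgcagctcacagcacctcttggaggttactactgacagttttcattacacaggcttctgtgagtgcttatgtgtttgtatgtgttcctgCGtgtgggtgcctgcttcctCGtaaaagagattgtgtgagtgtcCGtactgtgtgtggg
Lsamp: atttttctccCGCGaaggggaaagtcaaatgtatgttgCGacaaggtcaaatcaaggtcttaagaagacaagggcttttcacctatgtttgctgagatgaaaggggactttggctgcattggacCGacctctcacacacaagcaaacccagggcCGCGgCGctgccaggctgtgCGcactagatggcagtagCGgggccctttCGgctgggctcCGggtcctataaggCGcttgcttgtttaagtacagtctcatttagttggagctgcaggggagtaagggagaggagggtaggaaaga
Zfp993: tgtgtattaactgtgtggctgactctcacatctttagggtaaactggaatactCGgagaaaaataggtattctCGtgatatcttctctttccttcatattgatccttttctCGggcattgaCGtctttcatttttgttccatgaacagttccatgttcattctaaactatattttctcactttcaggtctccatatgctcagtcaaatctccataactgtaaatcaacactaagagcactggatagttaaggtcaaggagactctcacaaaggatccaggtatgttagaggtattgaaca
They held 6, 12 and 4 CG and were 50%, 53% and 38% G or C.

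The next 3 windows belong to hosts with at least 4 inside peaks whose first window was met by an RNA polymerase II peak, again with each CG in capitals. Ctnna3 (chr10:63429848-63430147, plus strand) encodes the adherens junction protein alpha-T-catenin, Stpg2 (chr3:139205643-139205942, plus strand) a protein with sperm-tail repeats, and Sdhaf3 (chr6:6955768-6956067, plus strand) an assembly factor of succinate dehydrogenase.
Ctnna3: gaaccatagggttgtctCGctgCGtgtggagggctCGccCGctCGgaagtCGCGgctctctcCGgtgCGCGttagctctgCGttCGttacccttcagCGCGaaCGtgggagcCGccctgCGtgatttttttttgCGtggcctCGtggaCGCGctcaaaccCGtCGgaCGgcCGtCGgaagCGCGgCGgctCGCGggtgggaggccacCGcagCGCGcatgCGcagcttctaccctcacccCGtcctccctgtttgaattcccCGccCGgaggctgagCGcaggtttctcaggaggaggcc
Stpg2: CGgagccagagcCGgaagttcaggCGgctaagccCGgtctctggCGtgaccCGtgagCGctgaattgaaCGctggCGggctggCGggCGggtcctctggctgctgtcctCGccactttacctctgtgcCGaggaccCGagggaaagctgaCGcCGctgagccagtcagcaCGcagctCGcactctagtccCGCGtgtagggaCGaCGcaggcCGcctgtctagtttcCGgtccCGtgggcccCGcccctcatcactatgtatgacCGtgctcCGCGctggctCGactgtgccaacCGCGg
Sdhaf3: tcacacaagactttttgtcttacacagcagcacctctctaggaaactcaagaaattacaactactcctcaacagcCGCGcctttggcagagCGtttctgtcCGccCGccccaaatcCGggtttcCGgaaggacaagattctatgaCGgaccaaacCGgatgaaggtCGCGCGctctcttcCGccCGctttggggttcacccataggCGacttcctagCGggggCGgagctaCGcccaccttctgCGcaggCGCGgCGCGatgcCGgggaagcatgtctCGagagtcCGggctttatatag
They held 39, 32 and 26 CG. The RNA polymerase II peaks over them were 610, 488 and 399 bp wide.

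The 6 windows were picked by inside peaks and RNA polymerase II and do not represent all hosts. Of the 872 hosts, 599 had a promoter window at their 5′ end, with a median of 10 CG and 54% G or C, against 18 CG and 59.3% in 11139 other genes with interior sequence. Windows of genes with RNA polymerase II held more CG among both hosts and other genes. Hosts with RNA polymerase II at an end had a median of 20.5 CG (n = 92), near the 23 of other genes with RNA polymerase II (n = 4676). Hosts without it had 8 (n = 507) and other genes without it 11 (n = 6463). By number of peaks, the median was 14 CG in hosts of 10 or more (n = 31) and 10 in hosts of a single peak (n = 345). Several hosts with many peaks and no RNA polymerase II had windows rich in CG, such as Adgrl3 with 40 and Macrod2 with 33, both picked after their values were seen. At least 10 CG were found in 81.5% of windows of hosts with RNA polymerase II (72.1 to 88.9%) and in 46.5% of those without (42.1 to 51%). In the other genes the shares were 90.2% and 53.9%, and over the first windows of all protein-coding genes 58.8%. The motif reads the same on both strands, and 94.6% of all 32851 windows of 300 bases held it at least once.

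RefSeq also lists starts within genes, and 8 of the 2487 inside peaks (0.322%, 0.139 to 0.633%) met a promoter window. The share over all H3K9me3 peaks on these chromosomes was 0.749%, but the rule keeps inside peaks away from gene ends, where most windows lie, so nothing is read from the lower share. The windows of 2 of these 8 are shown because the mark covered the start itself. They were chosen after their values were seen, and capitals mark the bases inside the H3K9me3 peak. The Abcg2 window (chr6:58596422-58596721, plus strand), of an efflux transporter gene, lay wholly within a peak of 761 bp. The Zfp936 window (chr7:43177340-43177639, plus strand) had 151 of its 300 bases in a peak of 1439 bp.
Abcg2: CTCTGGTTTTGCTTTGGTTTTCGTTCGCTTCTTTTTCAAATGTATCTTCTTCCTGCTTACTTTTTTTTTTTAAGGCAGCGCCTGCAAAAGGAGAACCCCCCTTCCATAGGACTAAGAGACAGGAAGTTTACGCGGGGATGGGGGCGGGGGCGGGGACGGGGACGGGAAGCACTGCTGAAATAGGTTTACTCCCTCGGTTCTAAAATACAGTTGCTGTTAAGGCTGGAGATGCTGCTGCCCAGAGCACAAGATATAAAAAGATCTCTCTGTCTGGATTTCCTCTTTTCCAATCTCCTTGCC
Zfp936: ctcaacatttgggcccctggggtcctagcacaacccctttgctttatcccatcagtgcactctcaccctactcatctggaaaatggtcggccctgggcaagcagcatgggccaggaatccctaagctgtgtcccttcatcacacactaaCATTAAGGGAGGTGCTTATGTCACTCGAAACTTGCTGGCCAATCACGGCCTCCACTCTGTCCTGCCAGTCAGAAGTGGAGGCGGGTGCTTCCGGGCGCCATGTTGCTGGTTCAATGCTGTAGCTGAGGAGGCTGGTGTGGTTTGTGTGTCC
Neither window was met by an RNA polymerase II peak.

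The inside peaks were narrow and spread over many genes. Their widths ran from 163 to 1999 bp with a median of 590 bp (quartiles 397 and 944), and together they covered 1794.7 kb. Peaks of the same width class outside genes had a median of 584 bp (n = 12379) and those at gene ends 634.5 bp (n = 572). The widest inside peak below the limit measured 1999 bp, and the narrowest inside peak above it measured 2005 bp; 138 inside peaks of 2000 bp or more were left out. The inside peak nearest to a gene end was 3011 bp away. The nearest of the 321 peaks left out for lying in a gene but too close to an end was 2994 bp away. Among the widest were those in Galnt13, a glycosyltransferase gene (1998 bp), Ulbp1, which encodes an NKG2D ligand (1994 bp), and Nxpe5 (1992 bp).

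Of 16005 protein-coding genes with interior sequence, 872 were hosts (5.45%, 5.1 to 5.81%). They were 4.03% of all 21627 protein-coding genes on these chromosomes. A single inside peak was found in 490 hosts (56.2%), 2 to 4 in 238 (27.3%) and 5 or more in 144 (16.5%). Thus 382 genes held 2 or more, which is 2.39% of genes with interior sequence. The peaks were concentrated in few hosts. The 144 hosts with at least 5 peaks held 57.4% of all inside peaks, and the 60 hosts with at least 10 held 908 of them (36.5%). Because gene spans overlap, the 2487 peaks made 2556 pairs of peak and host, and 40 peaks (1.61%) lay in more than 1 span. The extreme case was a peak of 865 bp on chromosome 18 that lay in 15 overlapping spans, 12 of them Pcdha genes.

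The genes with most inside peaks named here were all without an RNA polymerase II peak at an end. Ptprd, a receptor tyrosine phosphatase that organises synapses (chr4:75941237-78211742), held 28 peaks of median width 665 bp along 2271 kb, or 12.4 per Mb of its interior. Lrp1b, of the LDL receptor family (chr2:40595290-42653598), held 27 along 2058 kb. Lrrc4c held 26 along 1314 kb, 19.9 per Mb, the highest density of the 59 genes of 1000 kb or more. Naaladl2 held 23, the cadherin Cdh18 22, Nkain2, named for its binding to the sodium pump, 21, and Lsamp and the syntrophin Sntg1 20 each. Cdh12 and Dpp10, an accessory subunit of potassium channels, held 19, Skint5, of a butyrophilin-like family of skin and thymus, 18, and the complement-control protein Csmd1 17.

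Zfp978 and Zfp993, also among the hosts with most inside peaks, were zinc finger genes of a different shape. Zfp978 (chr4:147124882-147392027) held 27 peaks in 267 kb, or 114 per Mb, and Zfp993 (chr4:146512849-146991471) 20 in 479 kb, or 43.4 per Mb. Each also had an H3K9me3 peak at its own end, which Ptprd, Lrp1b, Lrrc4c and Csmd1 did not. The clone-named gene Gm40862, on chromosome 12, held 24 peaks in 238 kb and is named here after its values were seen.

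**Figure D1:**
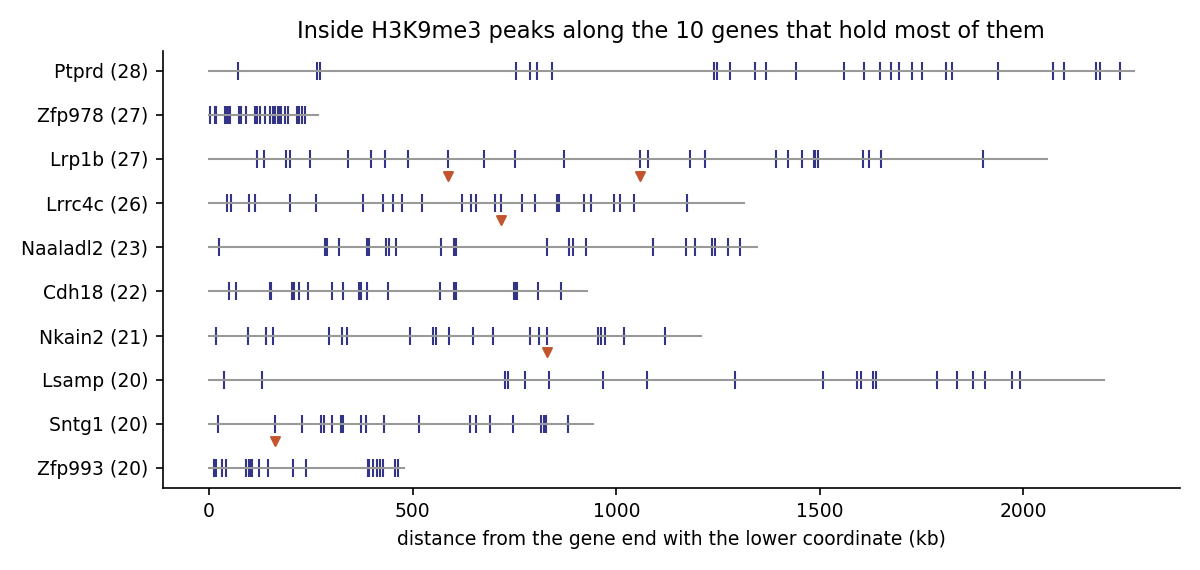
Inside H3K9me3 peaks along the 10 named genes that held most of them; each grey line is a gene drawn to scale from the end with the lower coordinate (x axis, distance in kb), each blue bar a peak midpoint, each orange triangle a peak that met an R-loop or DDX55 peak, and the number beside each name its count of peaks. The peaks of Ptprd, Lrp1b and Lrrc4c were spread along the gene, while the 27 of Zfp978 lay within 267 kb.

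Hosts were long genes. Their median length was 146 kb (quartiles 44.9 and 381) against 26.1 kb (13.8 and 57) for the 15133 genes with interior sequence and no inside peak. Hosts of a single peak had a median of 90.7 kb and hosts of 10 or more 967 kb, and the range over all hosts ran from 6.38 to 2390.4 kb. Across the 872 hosts, length and number of peaks had a Spearman rho of 0.49. Across all 16005 genes rho was 0.25. Genes are not independent replicates, and a longer gene offers more sequence in which a peak can fall.

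**Figure D2:**
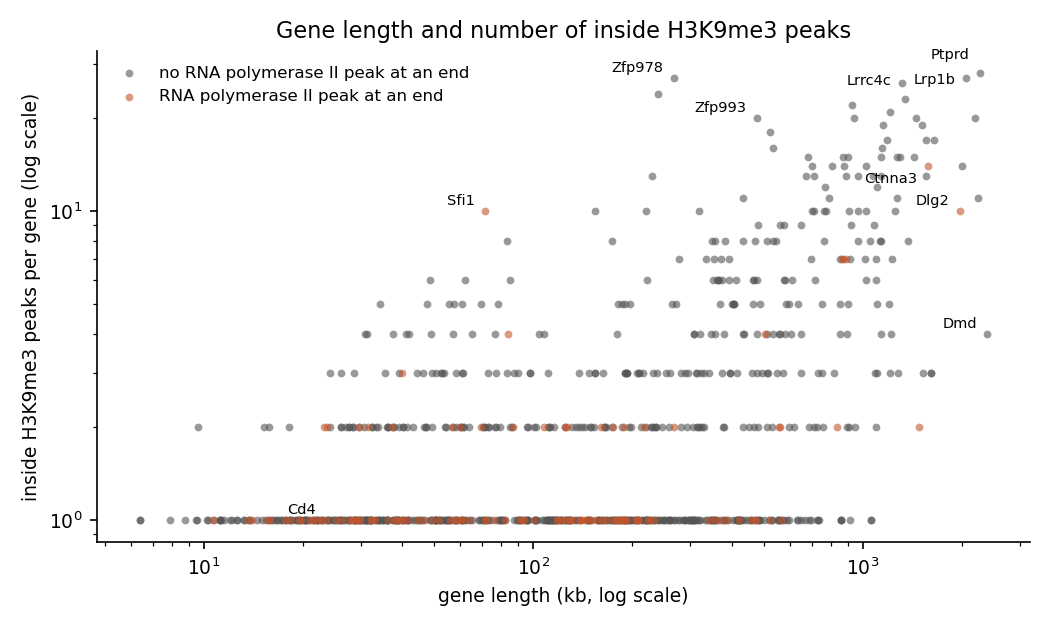
Gene length (x axis, kb, log scale) against the number of inside H3K9me3 peaks (y axis, log scale) for the 872 hosts; each point is a gene, orange where RNA polymerase II lay within 3000 bp of an end. The 60 hosts of 10 or more peaks had a median length of 967 kb, with shorter ones such as Zfp978 and Sfi1 among them, and Dmd was the longest host with only 4.

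The density of inside peaks per Mb of interior also differed between length classes. It was 1.71 per Mb in genes under 20 kb, 2.04 at 20 to 50 kb, 1.49 at 50 to 100 kb and 1.3 at 100 to 200 kb. It was then 2.52 at 200 to 500 kb, 5.32 at 500 to 1000 kb and 7.58 in genes of 1000 kb or more. The share of genes that were hosts was 0.962%, 3.54%, 5.05%, 10.5%, 25.8%, 63.5% and 93.2% over the same classes. Density thus differed little up to 200 kb and was higher in each longer class. For comparison, peaks of the same widths lay at 8.37 per Mb outside protein-coding genes and at 2.72 per Mb over all gene interiors counted once.

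Length did not fix the number, even among the longest genes. Over the 59 genes of 1000 kb or more, density ran from 0 to 19.9 per Mb with a median of 7.08, and 29 of them held 10 or more peaks. Dmd, the dystrophin gene on X and the longest host, held 4 peaks in 2390 kb, and Nrxn3 and Fhit held 3 each in 1612 kb. The 4 genes of this class without an inside peak were the phosphodiesterase gene Pde4d (1302 kb), the kinase gene Prkg1 (1201 kb), Lrmda (1037 kb) and the polarity gene Pard3b (1004 kb). None of these 4 had an RNA polymerase II peak at an end. The next longest without a peak were Sdk1 (974 kb), Sox5 (954 kb), Immp2l (932 kb), Wwox (913 kb), Tenm1 (901 kb) and Hdac9 (870 kb). Of these only Immp2l and Wwox had RNA polymerase II at an end.

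**Figure D3:**
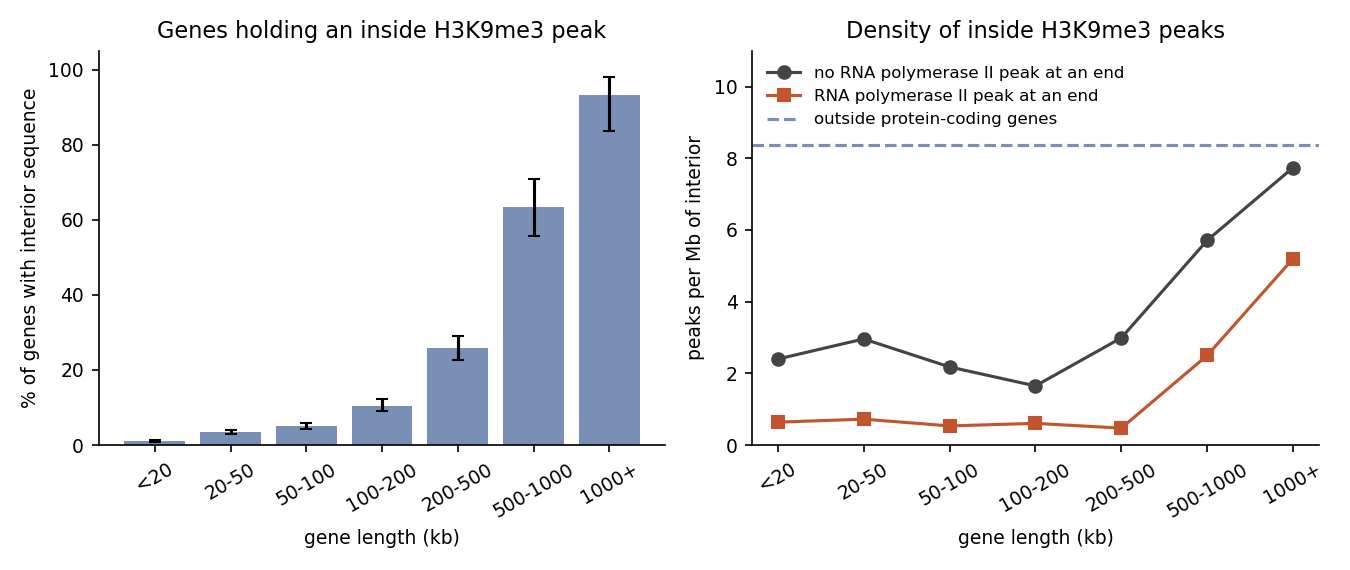
Left, share of genes with interior sequence that held an inside H3K9me3 peak (y axis, %, exact 95% intervals) by gene length (x axis, kb); right, inside peaks per Mb of interior in genes with (orange) and without (grey) an RNA polymerase II peak at an end, with the density outside protein-coding genes dashed. The host share was 93.2% in the longest class, and the orange points lay under the grey ones in every class.

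RNA polymerase II marked the ends of hosts less often than those of other genes. It lay within 3000 bp of an end in 122 of 872 hosts (14%, 11.8 to 16.5%) and in 5950 of 15133 other genes with interior sequence (39.3%, 38.5 to 40.1%). The background was 37.9% of all genes with interior sequence and 33.9% of all protein-coding genes. The share was lower in hosts of many peaks, at 18.8% (15.4 to 22.5%) for a single peak and 5% (1.04 to 13.9%), or 3 of 60, for 10 or more. Conversely, 24.6% of hosts with RNA polymerase II held 2 or more inside peaks, and 46.9% of hosts without it did. These shares are not matched for length. Hosts of 10 or more peaks had a median length of 967 kb and hosts of a single peak 90.7 kb. Hosts with RNA polymerase II had a median of 104 kb and those without it 158 kb. All hosts of 500 to 1000 kb were at 8.49% and those of 1000 kb or more at 5.45%, so peak number and length are not separated here.

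The difference was present at matched gene lengths up to 500 kb. In genes under 20 kb the share was 15.5% of hosts and 37.6% of others, at 20 to 50 kb 17.4% and 42.3%, at 50 to 100 kb 15.7% and 43.4%, and at 100 to 200 kb 21.2% and 36.4%. At 200 to 500 kb it was 9.14% (5.51 to 14.1%) and 23.9% (20.4 to 27.6%). At 500 to 1000 kb the intervals overlapped, at 8.49% (3.96 to 15.5%) and 19.7% (10.6 to 31.8%). The 8.49% is 9 of 106 hosts and counts the overlapping clone-named Gm37013, Gm38666 and Gm38667 separately. The longest class held only 4 other genes, so that no comparison was possible there.

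**Figure D4:**
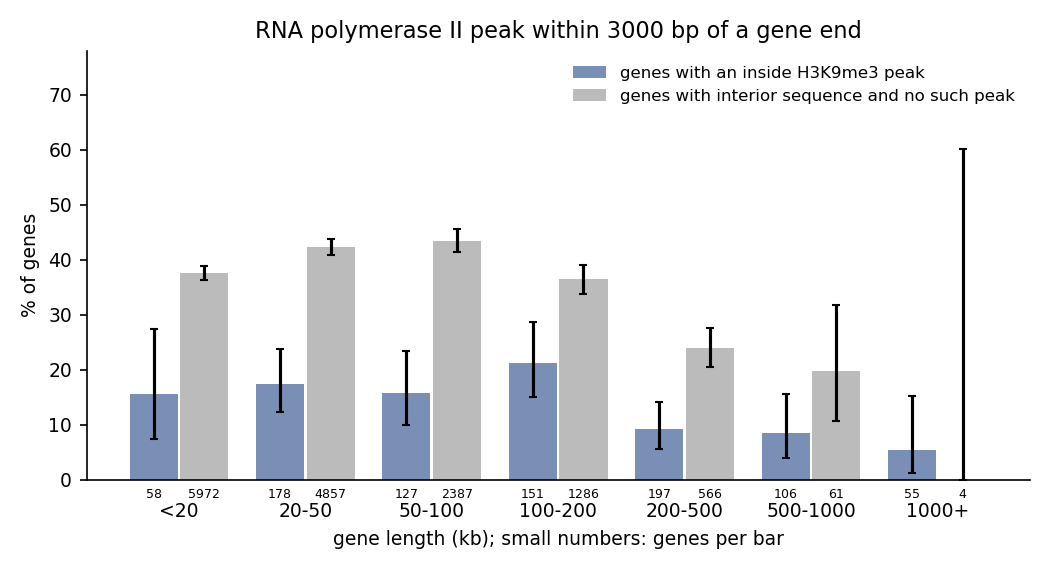
Share of genes with RNA polymerase II within 3000 bp of an end (y axis, %) by gene length (x axis, kb), for hosts of an inside H3K9me3 peak (blue) and other genes with interior sequence (grey); error bars are exact 95% intervals and small numbers the genes per bar. Hosts were lower in each class with more than 4 other genes, and the intervals overlapped at 500 to 1000 kb.

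Read the other way, genes with RNA polymerase II at an end carried fewer inside peaks for their interior. They were hosts in 122 of 6072 cases (2.01%), at 0.777 peaks per Mb, whereas genes without it were hosts in 750 of 9933 cases (7.55%), at 3.53 per Mb. By length class the densities with and without RNA polymerase II were 0.639 and 2.4 under 20 kb, 0.606 and 1.65 at 100 to 200 kb, and 0.472 and 2.99 at 200 to 500 kb. They were 2.5 and 5.71 at 500 to 1000 kb. The 2.5 rests on 33 pairs of peak and host in 9 hosts. Among these, the overlapping clone-named Gm37013, Gm38666 and Gm38667 each count the same 7 peaks. Only 3 genes of 1000 kb or more had RNA polymerase II at an end, and all were hosts, at 5.2 against 7.74 per Mb.

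Where the strand was known from a promoter window, RNA polymerase II of hosts lay mostly at the start. It was there in 92 of 674 such hosts (13.6%) and in 36.9% of 12083 other genes, with 35.7% over both. At the far end the shares were 1.48% and 8.55%. Of 97 hosts with a peak at an end and a known strand, 87 had it at the start only, 5 at the far end only and 5 at both. A gene end can also lie near a neighbour. With only those RNA polymerase II peaks that lay near the ends of no other gene, the shares were 9.63% of hosts and 24.3% of others. Counting peaks over internal starts as well gave 15% and 40.4%. Sp140, of a family of nuclear body proteins, was such a case. It held 5 inside peaks in 57.5 kb and had no RNA polymerase II at its ends, but a peak of 1080 bp lay over an internal start and met an inside peak of 1741 bp.

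The hosts with RNA polymerase II at an end and 2 or more inside peaks were a varied group of 30 genes. They are not 30 separate cases, because some spans overlap. The clone-named Gm37013, Gm38666 and Gm38667 shared the same 7 peaks on chromosome 18, and Cox16 and Gm20498 shared the same 2. Ctnna3 held 14 inside peaks in 1574 kb, Dlg2, a postsynaptic scaffold gene, 10 in 1973 kb, and Sfi1, which encodes a centrin-binding protein of the centrosome, 10 in 71.5 kb. Stpg2 and Sdhaf3 held 4 each and the zinc finger gene Zfp560 held 3. Those with 2 included Zfp81, Zfp950, the mismatch repair gene Pms1, the cathepsin gene Ctse, the transcription factor gene Lcorl and Dock2. Dock2, an activator of Rac in lymphocytes, had RNA polymerase II peaks at both ends and 8 in its interior beside 2 inside H3K9me3 peaks in 557 kb, or 3.71 per Mb. Inside peaks of hosts with RNA polymerase II had a median width of 728.5 bp and lay a median of 33.4 kb from the nearest RNA polymerase II peak. The 2303 in hosts without it had medians of 581 bp and 877 kb. The contrast in distance is partly set by the grouping, since the former hosts were defined by such a peak within 3000 bp of an end.

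H3K9me3 reached within 3000 bp of an end in 17% of hosts (14.5 to 19.6%) and 1.71% of other genes (1.51 to 1.93%). Hosts were chosen by this same mark, so the 2 shares are not independent of the choice. An inside peak can also count here if its edge reached that distance, though 2466 of the 2487 lay wholly beyond it. R-loop peaks lay in the interior of 8.94% of hosts and 1.3% of other genes, and DDX55 peaks in 2.98% and 0.0661%. RNA polymerase II peaks lay in the interior of 8.49% and 10.1%. None of these shares is matched for length, and hosts were longer.

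Among the 25 gene lists, that of synaptic adhesion and axon guidance, which build contacts and routes of neurons, held most inside peaks. The list was drawn up with earlier results of these data known. It is broader than its name, since it also takes in genes such as Ctnna3, Macrod2 and Rbfox1. Of 67 listed genes, 50 were hosts (74.6%, against 5.45% of all), holding 480 peaks at 8.05 per Mb, and 48 of them held 2 or more. Ptprd, Lrp1b, Lrrc4c, Lsamp and Csmd1 led, followed by Pcdh15 with 17, Cntnap5a and Tenm3 with 15 each, and Adgrl3, Astn2, Ctnna3 and Macrod2 with 14. Nrxn3, a neurexin gene, was toward the other end, with 3 in 1612 kb. RNA polymerase II lay at an end of 3 of the 67. These genes are long, with a median of 903 kb. At 1000 kb or more, 30 of 30 listed genes and 25 of 29 others were hosts, at 8.18 and 6.9 per Mb. At 500 to 1000 kb the counts were 13 of 17 and 93 of 150, at 8.15 and 4.96 per Mb, and at 200 to 500 kb 6 of 13 and 191 of 750, at 7.14 and 2.43 per Mb. Both the listed and the other genes of a class contained hosts, so length class and list overlapped.

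Host counts of further lists are read against 5.45% of all genes with interior sequence and against length, since 10.5% of genes of 100 to 200 kb and 25.8% of genes of 200 to 500 kb were hosts. Of 45 cadherin and protocadherin genes outside the clusters, 15 were hosts (33.3%, median length of the list 106 kb), with 112 peaks. They were led by Cdh18 with 22, Cdh12 with 19, Cdh13 and Pcdh15 with 17 each, and Pcdh9 with 14. Pcdh15 is also on the synaptic adhesion list, so its peaks are counted in both. The 12 hosts among 35 clustered protocadherin genes all shared the single peak in the Pcdha cluster. Of 45 glutamate and GABA receptor genes 15 were hosts (33.3%, median 183 kb), with 13 peaks in Gabrg3 and 10 in Grid1. Of 127 genes of voltage-gated and potassium channels 16 were hosts (12.6%, median 52.2 kb), with 8 peaks in Kcnip4 and 5 in Kcnc2. Among 15 axonemal dyneins, motors of cilia, 7 were hosts (46.7%, median 238 kb), and Dnah7c held 8 of their 14 peaks.

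Zinc finger genes were short hosts with dense peaks. Of 397 listed genes 58 were hosts (14.6%), with 132 distinct peaks at 12.7 per Mb counted by gene, and the listed genes had a median length of 19.3 kb. They divided by place. On chromosome 4 between positions 145510759 and 147849126, 16 of 17 listed genes were hosts, with 70 distinct peaks, an H3K9me3 peak at an end of all 16 and RNA polymerase II at an end of none of the 17. This stretch was singled out after the values were seen. It held Zfp978 and Zfp993, Zfp981 with 4 peaks in 37.4 kb (158 per Mb), Zfp991 with 6 (141 per Mb) and Zfp600 with 4 (111 per Mb). The spans of Zfp991 and Zfp988 lie within that of Zfp978, so their peaks are the same peaks. These genes belong to a family of close copies, and how reads that fit several copies were placed is not given in the sources used here; its part in the counts was not tested.

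Elsewhere 42 of 380 listed zinc finger genes were hosts (11.1%), with 62 peaks, and 14 of the 42 had RNA polymerase II at an end (33.3%) against 147 of the 338 others (43.5%). Zfp781 held 3 peaks in 28.6 kb (133 per Mb), Zfp936 5 and Zfp442 4. Over all 132 peaks of zinc finger hosts the median width was 777.5 bp, and over the 480 of synaptic adhesion hosts 538.5 bp. The former lay a median of 11.5 kb from a gene end and the latter 276 kb.

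Other multigene families included hosts as well, to be read against the same 5.45% of all genes with interior sequence. Of 133 vomeronasal receptor genes, which serve pheromone sensing, 24 were hosts (18%), all without RNA polymerase II at an end and 20 of them with a single peak. Of 62 olfactory receptor genes with interior sequence 2 were hosts (3.23%), Olfr1280 and Olfr183. Among cytochrome P450 genes 11 of 84 were hosts (13.1%), led by Cyp2c39 with 6 peaks, and Cyp3a41b held 3 in 26.1 kb (149 per Mb). The sulfotransferase gene Sult2a1 held 4 in 41.2 kb (114 per Mb). None of 60 serpin genes was a host. Hosts numbered 5 of 44 collagen genes (11.4%), with 5 peaks in Col11a1, 17 of 361 solute carrier genes (4.71%) and 5 of 58 genes of the Klr and Clec families (8.62%). The share of solute carrier genes was near that of all genes. Of 27 imprinted genes 4 were hosts, Snrpn with 6 peaks, Magi2 with 2, and Trappc9 and Usp29 with 1 each.

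Few T cell genes were hosts, but with 5.45% of all genes as hosts the lists are too small to set them apart. Among 32 T cell receptor signalling genes with interior sequence, of which 30 had RNA polymerase II at an end, Cd4 was the single host (3.12%). None of 23 genes of naive T cell identity and quiescence was a host, and 13 of those had RNA polymerase II at an end. Of 23 helper lineage and effector genes 1 was a host (4.35%), Rora, which encodes a nuclear receptor, with 1 peak in 735 kb. No host was found among 10 B cell, 10 myeloid or 8 CD8 T and NK cell genes, whose RNA polymerase II counts were 0, 1 and 0, and Ank1, the ankyrin of red cells, was the host among 6 erythroid genes. The median lengths of these lists ran from 9.75 to 88 kb, beside 27.6 kb for all genes with interior sequence. Of 28 genes of the H3K9 methylation and silencing machinery 1 was a host, Zfp809, which recruits silencing to retroviruses, and its peak of 1466 bp also lay in the overlapping gene Zfp599. None of 51 DEAD-box and DEAH-box helicase genes and none of 8 ribosomal protein genes with interior sequence was a host. RNA polymerase II lay at an end of 38 and 6 of them.

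Inside peaks seldom met a peak of another target, where sharing 1 bp counts as meeting. RNA polymerase II peaks were met by 19 (0.764%, 0.461 to 1.19%), R-loop peaks by 49 (1.97%, 1.46 to 2.6%) and DDX55 peaks by 20 (0.804%, 0.492 to 1.24%). The background over all H3K9me3 peaks of these chromosomes, of any width and with the inside peaks included, was 0.538%, 1.62% and 0.761%. Each share was near that background, but the classes of peaks differed. Among peaks under 2000 bp, the shares were 0.267%, 1.39% and 0.444% outside genes, and 2.62%, 0.874% and 2.1% at gene ends. For RNA polymerase II the inside share lay between these 2 classes, whose intervals were 0.184 to 0.374% and 1.47 to 4.29%. For DDX55 the interval of inside peaks overlapped those outside genes (0.335 to 0.578%) and at gene ends (1.09 to 3.64%). For R-loops it also overlapped both (1.19 to 1.61% and 0.284 to 2.03%), so no order is read for DDX55 or R-loops. Without Sfi1 the inside shares were 0.525% for RNA polymerase II and 0.565% for DDX55. In all 70 inside peaks met at least 1 other list (2.81%). The median distance to the nearest RNA polymerase II peak was 804 kb for inside peaks, 414 kb for H3K9me3 peaks at gene ends and 996 kb for those outside genes.

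Sfi1 (chr11:3131850-3203347) took a large share of these meetings. Of its 10 inside peaks 6 met an RNA polymerase II peak, 6 a DDX55 peak and 2 an R-loop peak, and its interior held 7, 7 and 2 peaks of these targets. Without Sfi1 the counts over all hosts were 13, 14 and 47. Its peaks were wide, with a median of 1114 bp and the largest at 1950 bp. How reads that fit several places in the genome were placed is not given in the sources used here. Whether such reads had a part in the peaks at Sfi1 was not tested, so the meetings there are counts of overlapping peaks only.

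The inside peaks that met all 3 other lists numbered 5 (0.201%), against 12 of 13674 other H3K9me3 peaks (0.0878%). They were 2 in Sfi1 and 1 each in Jarid2, a cofactor of Polycomb repression, Peak1, a pseudokinase, and Cd4. The Cd4 peak (chr6:124879917-124880203) was 287 bp wide. It lay within an RNA polymerase II peak of 899 bp and within an R-loop peak of 8535 bp, and met a DDX55 peak of 440 bp. In Jarid2 (chr13:44869572-44870082) and Peak1 (chr9:56223572-56224026) the peaks of all 4 targets began at the same base. In Jarid2 they were 511 bp (H3K9me3), 479 bp (RNA polymerase II), 390 bp (R-loop) and 483 bp (DDX55) wide, and in Peak1 455, 393, 434 and 409 bp. First bases were also shared in Zc3h7a (chr16:11143906-11144316), with RNA polymerase II and DDX55, and in Gphn (chr12:78350869-78351237), with RNA polymerase II. Counted over lists, 4 of 19 meetings with RNA polymerase II, 2 of 49 with R-loops and 3 of 20 with DDX55 shared the first base. Over the other H3K9me3 peaks of these chromosomes the counts were 4 of 68, 5 of 213 and 5 of 103. What the shared first bases come from was not tested, and the Jarid2 and Peak1 peaks are counted above with that limit.

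R-loop peaks were the commonest partner, and their sensitivity to RNase H was not tested. Of the 49 inside peaks concerned, 43 met neither RNA polymerase II nor DDX55 peaks. Hosts without RNA polymerase II at an end held 34 of them (69.4%), whereas such hosts held 92.6% of all inside peaks. They were spread over 47 hosts. The widest was in Fgf14 (1924 bp), which encodes a regulator of sodium channels, followed outside Sfi1 by Ralyl (1464 bp) and the kinase gene Map3k5 (1405 bp). Lrrc4c, Lrp1b, Nkain2 and Sntg1, all among the hosts with most peaks, each had 1 such inside peak. The Rtl4 peak, in a gene derived from a retrotransposon, measured 694 bp and met R-loop and DDX55 peaks of 458 and 478 bp.

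Other annotated genes overlapped few inside peaks. Long noncoding RNA genes were met by 67 (2.69%, against 6.6% of H3K9me3 peaks outside protein-coding genes) and pseudogenes by 71 (2.85%, against 4.38%).

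Within a host, neighbouring peaks were spaced widely. Over 1684 gaps the median was 32.8 kb (quartiles 10.9 and 77.4), 23.6% were under 10 kb and 1.48% under 2 kb. The 674 hosts of known strand, with 1894 peaks, were divided into 10 equal segments from start to far end. Density per Mb of interior was 7.3 in segment 1, 9.27 in segment 2, 10.6 in segment 3 and 11.3 to 12.1 in segments 4 to 8. It was 10.6 in segment 9 and 7.37 in segment 10. Both outer segments held fewer peaks than the middle, 122 and 123 against 210 to 226 in segments 4 to 8. Their interior was also smaller, 16.7 Mb each against 18.6 to 18.7 Mb. The rule takes 3000 bp from each end, so the shortest hosts had no interior in the outer segments. Every host was chosen for holding a peak, so short hosts are dense by construction and count toward the inner segments only. Nothing is therefore read from the lower outer segments.

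**Figure D5:**
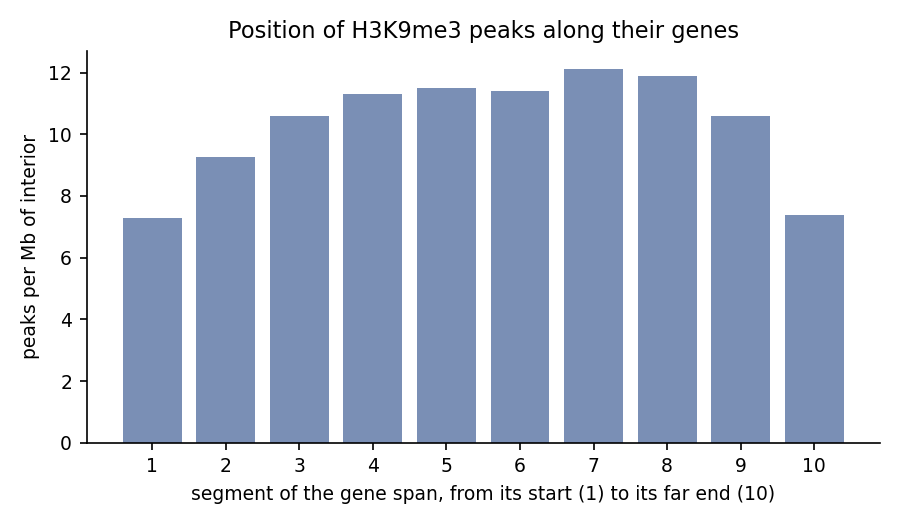
Inside H3K9me3 peaks per Mb of interior (y axis) by segment of the gene span, 10 equal segments from start to far end (x axis), over 674 hosts of known strand, with no error because genes and peaks are not replicates. Segments 1 and 10, at 7.3 and 7.37, were the lowest, but the rule left the shortest hosts no interior there, so nothing is read from this.

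By chromosome, inside peaks per Mb of interior were most frequent on 4 (4.76), 14 (4.41), 8 (4.04) and 1 (3.99). They were least frequent on X (1.1, with 45 peaks) and 13 (1.14). The share of all H3K9me3 peaks that lay inside genes ran from 5.78% on X to 27.6% on chromosome 19.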

How the data were processed

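Samples of CD4+ naive T cells profiled by CUT&Tag were grouped by target, genotype and treatment. For each target the authors deposited a single merged list in which every peak is given by its genomic coordinates (first and last position, bp); this is another unit than a read number, and no score comes with it. Per the submitters' processing notes, ChIPseeker 1.30.3, MACS3 3.0.0b1, SAMtools 1.15.1, Bowtie2 2.5.0 and fastp 0.12.4 were used with build mm10. Thresholds, the way samples were merged and any filter against controls are not given in the sources used here.

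Protein-coding genes came from a RefSeq table of GRCm38.p6 and starts and strand from RefSeq promoter windows, which hold none for chromosome 18. Peaks were placed by midpoint, with Python 3.11.15, numpy 2.4.6, pandas 2.3.3 and scipy 1.17.1, and figures drawn with matplotlib 3.10.9. The interval steps were tested on simulated data and against bedtools 2.31.1, with 0 mismatches in 7 checks. No test was run, since these lists hold no values per sample.

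The members and the 25 gene lists were chosen with earlier results of these data known. Outside clone symbols, genes were named by rule: the 15 hosts with most peaks; the 10 densest among those with at least 3; hosts of the 10 widest peaks; the top 15 with RNA polymerase II at an end and 2 or more peaks; up to 10 per list among hosts whose peaks met another list; up to 8 hosts per gene list; and the 10 longest genes with and without a peak. Some genes that the rule takes are not reported here. Other genes, among them Gphn, Abcg2 and further hosts of long lists, were named after their values were seen.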

Additional observations from a re-analysis of the deposited data

How the results depend on the processing

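No paired analysis was possible because each target has 1 merged list and no column per sample, and for the same reason no replicate could be left out. Of 59 alternatives to the main results, 39 stayed within the counting interval or within 1.5 times the count, and hosts had RNA polymerase II at an end less often than other genes in all 11 settings in which both shares were recomputed; the cause of the shifts was not tested. The share of other genes with RNA polymerase II moved from 39.3% to 38.1% with midpoints over 1000 bp from ends, 40.1% over 10000 bp and 40.6% without clone symbols. With a 1000 bp window it was 34.5% (hosts 12%), with the peak over the end base itself 22% (hosts 7.68%), and with peaks near 1 gene only 24.3% (hosts 9.63%), the last an alternative chosen after seeing the data. Hosts of 2 or more peaks were at 7.85%, and hosts by length class at 17.4% (20 to 50 kb), 21.2% (100 to 200), 9.14% (200 to 500), 8.49% (500 to 1000) and 5.45% (1000 or more). The wider 50% of the list left 1184 inside peaks. Median length was 26.1 kb for genes without a peak and 90.7 kb for hosts of 1. With 10 equal groups of genes by length, density in the longest group was 3.73 per Mb, since that group reaches into shorter genes. Requiring 50% of the H3K9me3 peak covered left 10 meetings with RNA polymerase II and 11 with DDX55. Requiring 2 or more peaks per gene lowered the host count by over 1.5 times in 14 of 25 gene lists. Depth is unknown, so a gene without a peak may lie under the threshold used by the authors.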
